A study of Homo sapiens with 8 samples.

Results

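RNA levels of the human lung adenocarcinoma line NCI-H2009, here H2009, were compared between cells carrying hairpins against PTK7 and cells carrying control hairpins. The arrays were chosen by their labels as all those of this cell line, which gave 4 of the 8 arrays in the series, and the other 4 hold the same hairpins in the lung cancer line NCI-H1299, here H1299. The PTK7 group consisted of 2 arrays, one for each of the hairpins PTK7-1 and PTK7-2. The control group consisted of 2 arrays, one for a hairpin against GFP and one for a hairpin against luciferase, here LUC, neither of which is a human gene. Every culture, controls included, received a lentivirus for 2 days and puromycin for a further 2 days, and total RNA was taken on day 4. Each hairpin was measured on a single array of bulk cells, so a difference between the 2 arrays of a group can come from the hairpin, the culture or the hybridisation, and these cannot be told apart. Nothing in the labels says that cultures were repeated, and p-values therefore measure only the spread between these arrays. In bulk RNA, fewer cells of a kind and less RNA per cell cannot be told apart either.

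PTK7 is a transmembrane protein of the receptor tyrosine kinase family whose kinase domain has lost its catalytic activity. In vertebrates it takes part in planar cell polarity, the shared orientation of cells within a sheet, together with VANGL, CELSR, PRICKLE and Dishevelled proteins. It also binds Wnt receptors and influences both the β-catenin branch and the planar polarity branch of Wnt signalling. PTK7 is present in embryonic epithelia and in many carcinomas, including those of the lung.

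Expression is given on a log2 scale for each probe set, and the brightest probe set stood for each of 18404 genes with a single symbol. A difference is the mean of the PTK7 arrays minus the mean of the control arrays on the log2 scale, given ± the standard error of the fit, with n = 2 arrays a group. That error pools the spread within all 4 groups, those of H1299 included. It is therefore not the spread of the H2009 arrays alone. A gene is called separated where both PTK7 arrays lay above, or both below, both control arrays, and its gap is the distance between the nearest PTK7 array and the nearest control array. Pearson r across genes was 0.985 between the 2 PTK7 arrays, the lowest of the 6 pairs in H2009, and 0.997 between the 2 control arrays, the highest. The median absolute distance per gene was 0.21 between PTK7-1 and PTK7-2 and 0.10 between GFP and LUC. More than 1 log2 unit lay between the PTK7 arrays at 456 genes and between the control arrays at 36. The cells carried the markers of an epithelial carcinoma, with a median log2 level of 11.2 in PTK7-1, 11.3 in PTK7-2, 11.2 in GFP and 11.1 in LUC over 10 markers. The array medians of 13 leukocyte, 12 fibroblast and 12 endothelial markers lay between 3.54 and 4.04, although 7 of the 12 fibroblast markers and 4 of the 13 leukocyte markers were separated upward by small amounts, whose part in the results was not tested. Single markers were brighter, up to 8.63 among the leukocyte and 9.20 among the endothelial markers.

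No gene passed the threshold, which was an adjusted p of 0.05 from limma over all 18404 genes, so 0% of genes were called. The lowest adjusted p from limma was 0.197. At an unadjusted p under 0.05, 1468 genes (7.98%) were counted, of which 669 (3.64%) were higher and 799 (4.34%) lower in PTK7 arrays. With the hairpin as a block, which uses that the same hairpins were measured in both lines, that count was 2241. The p-values of that fit leave out the difference between hairpins that both lines share, although the hairpins are the only replicates of a group. Both PTK7 arrays lay above both controls at 4776 genes (26.0%) and below both at 3486 (18.9%), so 57.8% of separated genes were higher. That split depended on the scaling and on dim genes. After centring each array on its median, 3714 genes were separated upward and 4308 downward (46.3% higher), and without the dimmest 40% of genes the counts were 2341 and 2764 (45.9% higher). The mean difference was above 0 at 56.1% of genes and below 0 at 43.9%, with a median of 0.03. The values of genes and groups that follow are therefore given as measurements, set against these shares, and none is a call.

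The targeted gene itself was lower with both hairpins. PTK7, on chromosome 6, had log2 values of 5.63 in PTK7-1 and 5.94 in PTK7-2, against 6.64 in GFP and 6.86 in LUC. The groups did not overlap. The difference was -0.96 ± 0.17, which leaves 51.4% of the control level on the linear scale, with an adjusted p of 0.222 from limma. An exact permutation test of 2 arrays against 2 cannot give a p below 0.333. The median control level over all genes was 6.34, so PTK7 was a gene of middling signal in the control cells.

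Of 27 measured members of a list of planar cell polarity genes and PTK7 partners, 7 were separated upward and 7 downward. Each is 25.9%, against 26.0% of all genes upward and 18.9% downward. PRICKLE2, which encodes a cytoplasmic polarity protein, had log2 values of 5.99 and 6.14 in PTK7-1 and PTK7-2, against 6.75 and 6.95 in GFP and LUC. CELSR1, an atypical cadherin of the same pathway, had 6.25 and 6.29 in the PTK7 arrays, against 6.71 and 7.02 in the control arrays. Both lay below the controls with either hairpin, with differences of -0.78 ± 0.14 for PRICKLE2 and -0.59 ± 0.14 for CELSR1. The Dishevelled gene DVL2 was at 7.34 and 7.02 in PTK7 arrays, against 7.55 and 7.63 in controls. WNT11, a ligand of the polarity branch, was higher, at 4.77 and 4.86 in PTK7 arrays against 4.57 and 4.39 in controls. The list as a whole had a median difference of 0.01, and this was negative after quantile normalization, median centring or removal of dim genes.

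The 15 genes per direction with the widest gap were taken from those separated and with an unadjusted p under 0.05. Over all genes the gap exceeded 1 at 10 upward (0.0543%) and at 18 downward (0.0978%). IL1A, which encodes the cytokine interleukin-1α, had log2 values of 6.71 in PTK7-1 and 7.37 in PTK7-2, against 5.38 in GFP and 5.41 in LUC. That is a difference of 1.65 ± 0.21, or 3.14-fold, with an adjusted p of 0.197 from limma. TNFSF15, a cytokine of the tumour necrosis factor family, had 7.58 and 7.44 in PTK7 arrays, against 6.18 and 6.21 in controls. The growth factor gene HBEGF had 9.56 and 9.17, against 8.04 and 7.08, and the Wnt antagonist gene DKK1 had 9.80 and 9.12, against 8.21 and 7.22. In these last 2 genes the control arrays lay about as far apart as the nearest PTK7 array lay from GFP. ADAM8, a membrane metalloprotease, had 7.68 and 7.83 in PTK7 arrays, against 6.75 and 6.45 in controls.

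The other genes on the upper side had several roles. CYP24A1, the enzyme that inactivates vitamin D, was 1.88 ± 0.36 higher, at 9.56 and 9.33 in PTK7 arrays against 8.20 and 6.92 in controls. ANKRD1, a nuclear ankyrin repeat protein and well known YAP target, had 6.68 and 6.22 in PTK7 arrays, a difference of 1.45 ± 0.34. ETV4 and SPRY4, described below with the ERK genes, were also among the 15. The kinase gene PLK3, the lipid transporter gene MFSD2A and the cholesteryl ester hydrolase gene NCEH1 were 1.18 ± 0.20, 1.29 ± 0.28 and 1.34 ± 0.53 higher. PSG6, the antisense transcript FAM222A-AS1 and the histone gene H2AC25 completed the 15, with differences of 1.67 ± 0.31, 1.16 ± 0.14 and 0.94 ± 0.14. PSG6 and H2AC25 belong to families of near-identical genes, whose probes may read more than 1 member.

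Among the 15 genes on the lower side, the largest difference was that of CEACAM5, which encodes the carcinoembryonic antigen. It had log2 values of 5.64 and 5.74 in PTK7-1 and PTK7-2, against 7.34 and 8.48 in GFP and LUC, a difference of -2.22 ± 0.33 or 4.65-fold lower, with an adjusted p of 0.197 from limma. The widest gap was that of CYP1B1, an oxidase of xenobiotics and oestrogens, with 5.63 and 5.94 in PTK7 arrays against 7.74 and 7.81 in controls. The arrays of either group lay closer to each other than to the other group. SOX2, a transcription factor of airway and stem cells, had 6.81 and 6.09, against 7.96 and 8.92. DSC2, a desmosomal cadherin, had 7.85 and 7.66, against 9.22 and 9.19. WEE1, the kinase that holds CDK1 inactive before mitosis, had 8.83 and 8.76, against 10.02 and 10.24. For DSC2 and WEE1 the distance within a group was at most 0.22, against differences of -1.45 ± 0.16 and -1.34 ± 0.17.

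IL1R1, the receptor of interleukin-1, stood lower while its ligand IL1A stood higher. It had log2 values of 5.54 and 4.77 in PTK7 arrays, against 6.78 and 7.21 in controls, with a difference of -1.84 ± 0.26. IKZF2, a zinc finger factor best known from T cells, and NREP had differences of -1.60 ± 0.23 and -1.16 ± 0.22. C2orf15 had a difference of -1.73 ± 0.44, and the histone gene H2BC12 one of -1.25 ± 0.27. The other 5 genes of the lower side, DDX60, IFIT1, IFIT2, IFIT3 and IFI44, are all interferon-stimulated genes. Of the 30 genes, 19 are members of at least 1 of the lists used here.

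**Figure D1:**
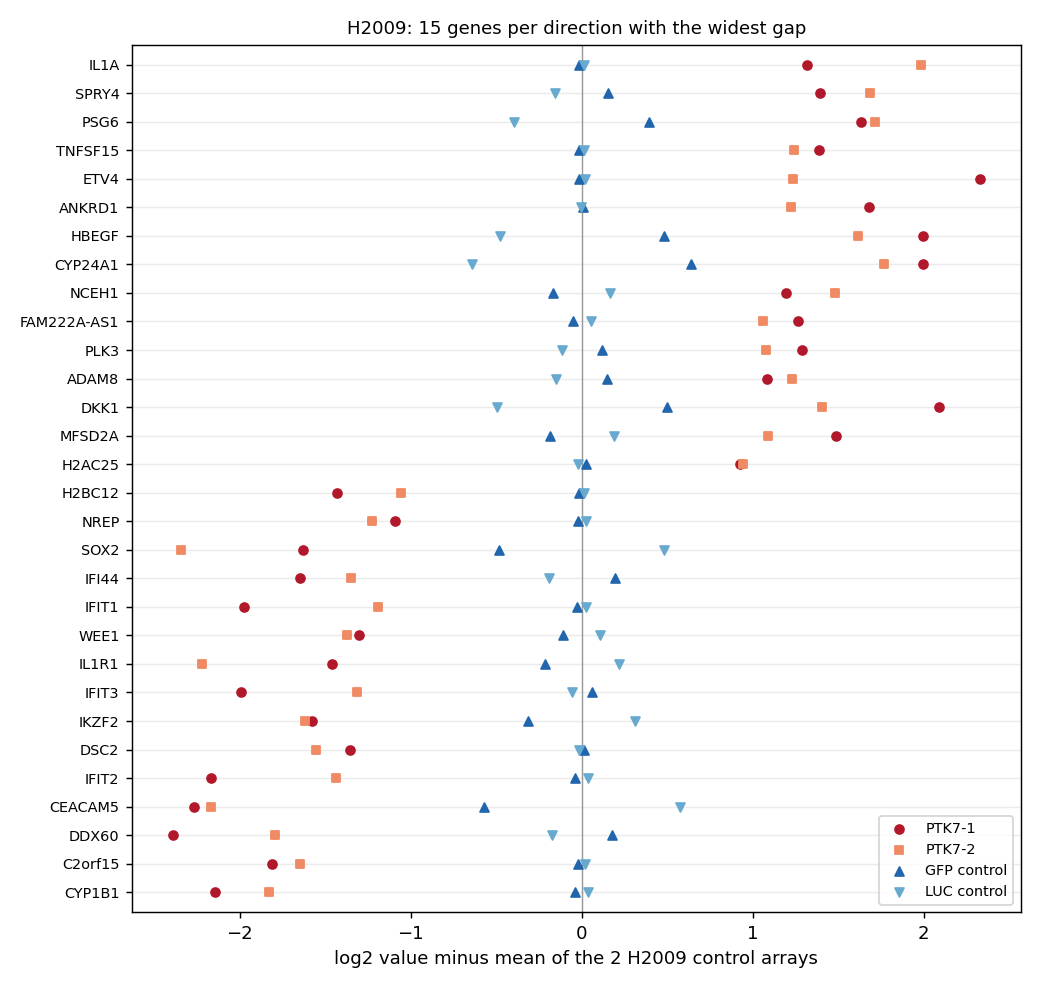
Log2 value minus the mean of the 2 H2009 control arrays (x axis) for the 15 genes per direction with the widest gap (y axis). Each point is 1 array, with PTK7-1 and PTK7-2 in reds and GFP and LUC in blues; IL1A lies between 1.32 and 1.98 in the PTK7 arrays, and CEACAM5 has control points spread more widely than most.

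Interferon-stimulated genes encode antiviral proteins that are switched on when interferons reach their receptors, through a promoter motif called the interferon-stimulated response element, ISRE. The IFIT and OAS families act on foreign RNA, and DDX60 is a helicase that assists RNA sensing. Printed here are the 200 bases before the start of 4 such genes that lay lower with both hairpins, read 5′ to 3′ on the strand of the gene from RefSeq (GRCh38.p14), with each match to GAAANNGAAA or to its reverse complement TTTCNNTTTC in capitals. Matches in HERC5 overlap.
IFIT1, chr10:89392423-89392622, plus strand: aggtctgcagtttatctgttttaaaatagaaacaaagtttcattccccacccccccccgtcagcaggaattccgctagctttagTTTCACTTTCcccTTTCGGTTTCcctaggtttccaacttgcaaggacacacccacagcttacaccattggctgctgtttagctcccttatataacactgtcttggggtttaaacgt
DDX60, chr4:168318753-168318952, minus strand: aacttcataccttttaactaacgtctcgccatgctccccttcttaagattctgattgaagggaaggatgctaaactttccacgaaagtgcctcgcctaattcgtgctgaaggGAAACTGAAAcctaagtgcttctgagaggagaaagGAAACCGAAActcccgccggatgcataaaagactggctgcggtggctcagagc
HERC5, chr4:88456919-88457118, plus strand: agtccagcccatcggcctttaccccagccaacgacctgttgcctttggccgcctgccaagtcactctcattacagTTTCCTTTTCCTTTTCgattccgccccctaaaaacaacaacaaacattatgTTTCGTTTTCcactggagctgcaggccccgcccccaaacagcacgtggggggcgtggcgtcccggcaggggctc
IFI44, chr1:78649589-78649788, plus strand: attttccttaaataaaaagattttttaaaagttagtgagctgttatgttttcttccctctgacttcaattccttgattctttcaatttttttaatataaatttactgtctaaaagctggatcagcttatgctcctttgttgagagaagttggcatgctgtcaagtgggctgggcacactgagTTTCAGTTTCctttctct

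Of 40 interferon-stimulated genes, 30 had a mean below and 10 a mean above the controls, and 19 were separated downward and 4 upward (47.5% and 10.0%, against 18.9% and 26.0% of all genes). At an unadjusted p under 0.05 from limma, 12 were lower and 0 higher, against 4.34% and 3.64% of all genes. The median difference was -0.21, and it was -0.25 after median centring. Log2 values of IFIT1 were 6.06 in PTK7-1 and 6.85 in PTK7-2, against 8.01 in GFP and 8.06 in LUC. DDX60 had 6.46 and 7.05 in PTK7 arrays, against 9.02 and 8.67 in controls, a difference of -2.09 ± 0.42 or 4.27-fold lower. Its adjusted p from limma was 0.284. HERC5, the ligase that attaches ISG15 to proteins, had 7.20 and 6.93, against 8.14 and 8.43, and IFI44 had 6.86 and 7.16, against 8.70 and 8.31. In each of these 4 genes every PTK7 array lay at least 0.94 below the nearest control array.

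IFIT2 had log2 values of 4.26 and 4.99 in PTK7-1 and PTK7-2, against 6.39 and 6.47 in GFP and LUC, and IFIT3 had 5.46 and 6.14, against 7.51 and 7.39. PTK7-1 lay below PTK7-2 in IFIT1, IFIT2, IFIT3, DDX60 and IFI44, and above it in HERC5. PARP9, a partner of the ligase DTX3L in the antiviral response, had a difference of -0.66 ± 0.14. The pattern did not cover the whole group. ISG15 and MX2 were among the 17 members whose PTK7 arrays did not separate from the controls, and XAF1, LAMP3, PARP10 and CMPK2 were the 4 separated upward. ISG15, a ubiquitin-like protein, and BST2, a membrane protein that tethers virions, had differences of -0.13 ± 0.17 and 0.05 ± 0.14. The members of this group that did not separate, and those separated upward, were named after their values were seen.

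The letters of the ISRE were found in the window from 250 bases before to 50 after the start of 25 of the 31 interferon-stimulated genes with a promoter in the RefSeq table (80.6%), against 1195 of 27305 genes (4.38%). The element was in 14 of the 15 such genes that were separated downward (93.3%), in 11 of the 14 not separated (78.6%) and in 0 of the 2 separated upward. A match describes the letters of the window, not a bound site. Interferon-stimulated genes are switched on through this motif, so the 80.6% is a property of the chosen list and not of the hairpins. Whether the shares differ between separated and other members was not tested.

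**Figure D2:**
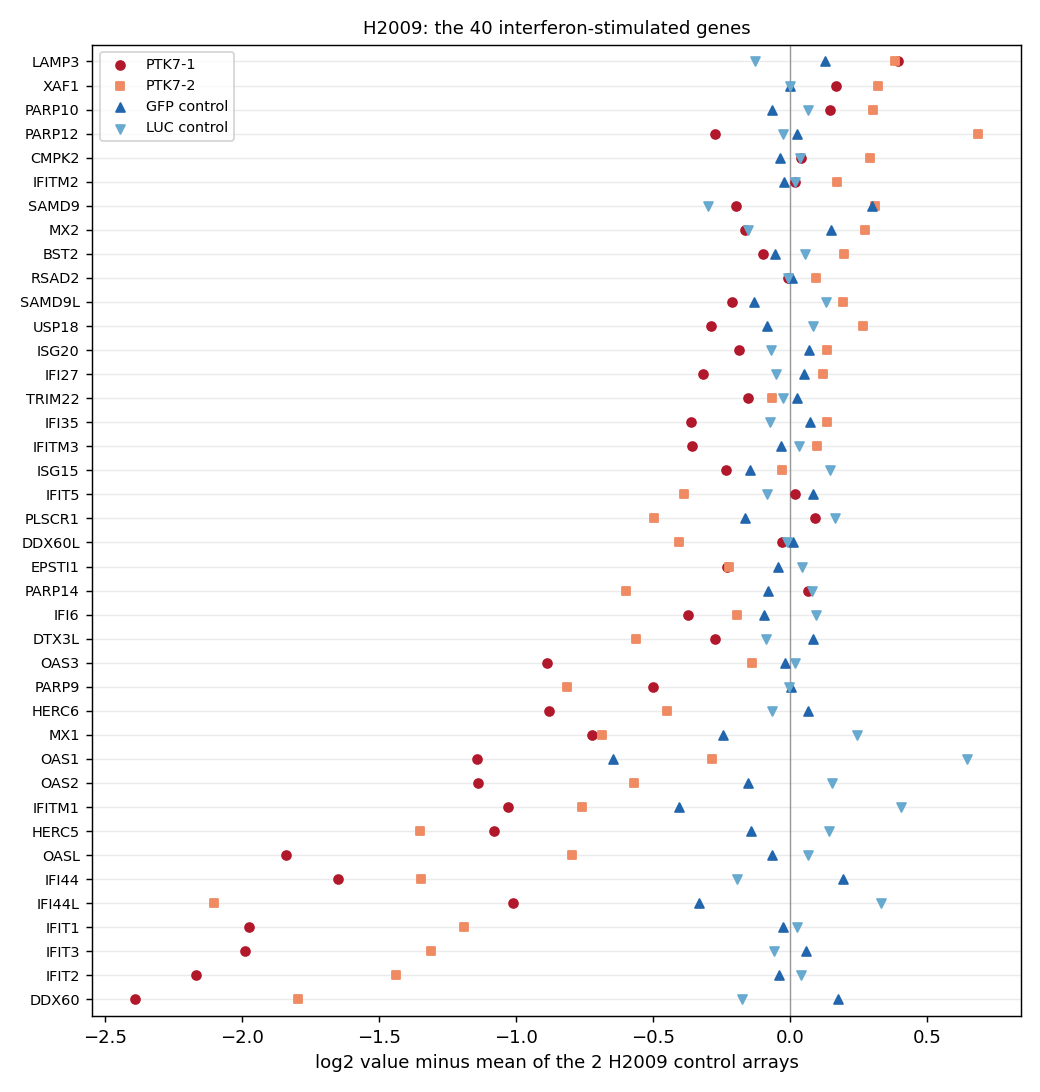
Log2 value minus the mean of the H2009 control arrays (x axis) for the 40 interferon-stimulated genes (y axis, ordered by difference), with 1 point per array. The 19 genes whose red PTK7 points both lie left of the blue control points gather at the bottom, where DDX60 is -2.09 on average, those in the middle mix, and XAF1, LAMP3, PARP10 and CMPK2 near the top have both PTK7 points to the right.

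The genes that sense RNA and relay the interferon signal were lower as well. Of 26 measured members of the list of interferon induction and signalling, 22 had a mean below the controls, with a median difference of -0.23. Separated downward were 12 and upward 4 (46.2% and 15.4%, against 18.9% and 26.0% of all genes). DHX58, which encodes the RNA sensor LGP2, had log2 values of 5.39 and 5.70 in PTK7 arrays, against 6.33 and 6.36 in controls. The sensors RIGI and IFIH1 were at 7.80 and 7.76, against 8.45 and 8.18, and at 6.96 and 6.79, against 7.48 and 7.71. ZC3HAV1, a zinc finger protein that binds CpG-rich viral RNA, had a difference of -0.66 ± 0.12. IFNL2, an interferon λ gene, was among the 4 separated upward. It was dim, below the median level of all genes, at 4.58 and 4.97 in PTK7 arrays against 4.25 and 4.44 in controls. Among the 12 measured MHC class I presentation genes, 4 were separated downward and 2 upward (33.3% and 16.7%). The transactivator gene NLRC5, the peptide transporter gene TAP1 and the immunoproteasome gene PSMB8 had differences of -0.44 ± 0.14, -0.38 ± 0.13 and -0.50 ± 0.27, and the partner gene TAP2 was 0.41 ± 0.19 higher.

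ERK signalling, driven by growth factor receptors and RAS, is read out through ETS factors, dual specificity phosphatases and Sprouty proteins that its activity induces, several of which then restrain it. This group had the highest median difference of the 35 lists, at 0.46, with 0.42 after median centring. Of 19 members, 16 had a mean above the controls. Separated upward were 12 and downward 2 (63.2% and 10.5%, against 26.0% and 18.9% of all genes). At an unadjusted p under 0.05 from limma, 9 were higher and 1 lower, against 3.64% and 4.34% of all genes. ETV4, an ETS factor, had log2 values of 7.44 in PTK7-1 and 6.34 in PTK7-2, against 5.09 in GFP and 5.12 in LUC. SPRY4, a Sprouty inhibitor of receptor signalling, had 6.44 and 6.73 in PTK7 arrays, against 5.20 and 4.89 in controls. The groups were well apart in both, with differences of 1.78 ± 0.33 and 1.54 ± 0.29 and adjusted p values of 0.245 and 0.248 from limma.

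The receptor gene EPHA2 was at 10.06 and 9.34 in PTK7 arrays, against 8.50 and 8.31 in controls, and the AP-1 factor gene FOSL1 at 9.40 and 9.80, against 8.99 and 8.55. ETV1, a relative of ETV4, was at 7.92 and 8.13, against 7.46 and 7.12. Each of these was higher with either hairpin, but the hairpin with the larger value differed from gene to gene. CCND1, the G1 cyclin, was at 7.88 and 9.22 in PTK7 arrays, against 8.08 and 6.96 in controls, so that the groups overlapped. The immediate early factor EGR1 and the inhibitor SPRY2 were the 2 separated downward, with differences of -0.50 ± 0.20 and -0.32 ± 0.20. CCND1, EGR1 and SPRY2 were named after their values were seen.

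The ligands that feed this pathway through the EGF receptor were higher where they were bright. Of 10 measured EGF family genes, 4 were separated upward and 1 downward. EREG, the gene of epiregulin, had log2 values of 10.64 and 10.31 in PTK7 arrays, against 9.60 and 9.26 in controls, with a difference of 1.04 ± 0.17. TGFA had 8.66 and 8.86, against 8.13 and 7.78. HBEGF, with a difference of 1.81 ± 0.42, had the largest of the list. The neuregulin gene NRG2 was also among the 4 separated upward, with a difference of 0.18. NRG4, a neuregulin gene among the dimmest 40% of genes, was the 1 separated downward, at -0.38 ± 0.18. Among 17 JNK kinases and AP-1 factors, 5 were separated upward and 5 downward (29.4% each, against 26.0% and 18.9% of all genes). FOSL1 was highest, and ATF3 (-0.39 ± 0.15) and JUNB (-0.29 ± 0.13) lay on the lower side.

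Target genes of the β-catenin branch of Wnt signalling were mostly higher. Of 17 measured, 15 had a mean above the controls, and the median difference was 0.30. Separated upward were 10 (58.8%) and downward 0, against 26.0% and 18.9% of all genes. After median centring 2 were separated downward, and without the dimmest 40% of genes 3 of the 8 members left were separated upward. A similar share, 7 of 12, of the fibroblast markers was separated upward. Apart from DKK1 the differences were small. AXIN2, the scaffold of the β-catenin destruction complex, had log2 values of 4.52 and 4.59 in PTK7 arrays, against 4.14 and 4.30 in controls. NKD2, an inhibitor of Dishevelled, had 4.80 and 5.07, against 4.54 and 4.54, and NOTUM, an enzyme that inactivates Wnt ligands, had 4.94 and 5.04, against 4.40 and 4.61. All 3 were dim, below the median level of all genes, while the adhesion receptor gene CD44 was bright, at 10.49 and 10.38 in PTK7 arrays against 10.21 and 10.06 in controls. At an unadjusted p under 0.05 from limma, 4 members of the list were higher and 0 lower, against 3.64% and 4.34% of all genes.

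**Figure D3:**
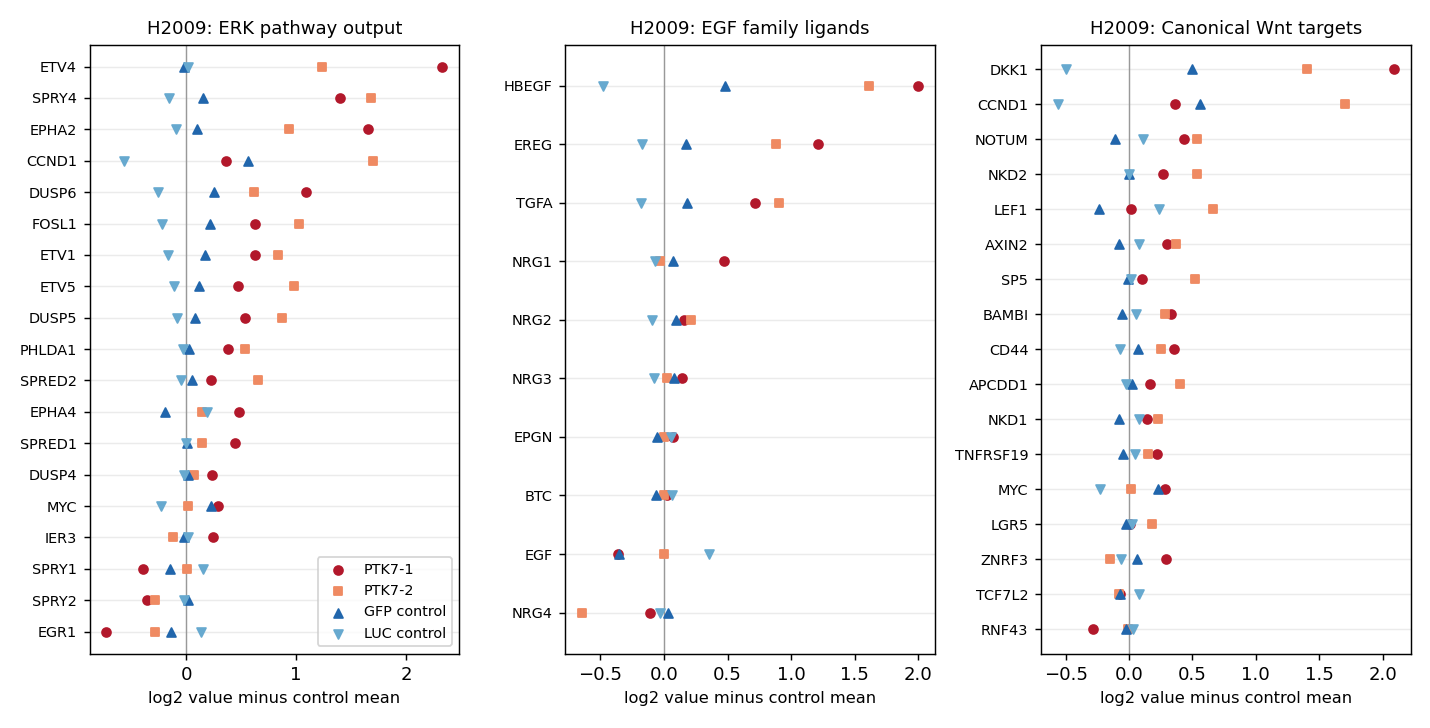
Log2 value minus the mean of the H2009 control arrays (x axes) for 19 ERK output genes, 10 EGF family ligands and 17 canonical Wnt targets (y axes), with 1 point per array. The PTK7 points lie right of the control points for ETV4, SPRY4, HBEGF, EREG and DKK1, and CCND1 shows the spread between hairpins and between controls.

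Interleukin-1 and NF-κB target genes lay on both sides of the controls. NF-κB is the transcription factor that interleukin-1 and tumour necrosis factor activate. Of 28 measured, 12 were separated upward and 5 downward, and the median difference was 0.21. These are 42.9% and 17.9%, against 26.0% and 18.9% of all genes, so the downward share was close to that of all genes. Without PTK7-2 the median was 0.12, with 15 separated upward and 11 downward. LIF, a cytokine of the interleukin-6 family, had log2 values of 7.38 and 7.22 in PTK7 arrays, against 6.76 and 6.19 in controls, and TNFAIP2 had 9.11 and 9.42, against 8.88 and 8.72. IL6 stood on the other side, at 5.62 and 6.61 in PTK7 arrays against 7.51 and 6.83 in controls. Its PTK7 arrays differed by almost as much as the groups, whose difference was -1.05 ± 0.34.

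Genes of the unfolded protein response and the integrated stress response serve protein folding in the endoplasmic reticulum and the supply of amino acids. Of 29, 22 had a mean above the controls, and the median difference was 0.21. Separated upward were 15 and downward 3 (51.7% and 10.3%, against 26.0% and 18.9% of all genes). DDIT3, the stress factor CHOP, had log2 values of 8.32 and 7.84 in PTK7 arrays, against 7.20 and 7.21 in controls. HERPUD1, a membrane protein of the degradation machinery, had 9.67 and 9.44, against 8.96 and 8.91, and the chaperone gene HYOU1 had 9.50 and 9.29, against 8.87 and 8.91. In these 3 genes PTK7-1 lay above PTK7-2 and the control arrays lay close together. SDF2L1, another folding factor, and the lipoprotein receptor gene VLDLR were 0.52 ± 0.17 and 0.72 ± 0.16 higher. Differences over the list ran from -0.40 to 0.88, and ATF3, a member given above with the AP-1 factors, was lower.

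Genes of DNA replication were lower by small amounts. Of 34 measured, 28 had a mean below the controls, 17 were separated downward and 1 upward, and the median difference was -0.15. Without PTK7-2 the median was -0.09, and 12 members had a mean above the controls in place of 6. CLSPN, a mediator of the replication checkpoint, had log2 values of 7.52 and 7.40 in PTK7 arrays, against 8.15 and 8.09 in controls. POLA1, the catalytic subunit of the priming polymerase, had 8.24 and 7.76, against 8.64 and 8.55, and the helicase gene MCM6 had 8.68 and 8.61, against 8.98 and 9.19. Those 3 genes, GINS3 (-0.50 ± 0.22) and TYMS (-0.31 ± 0.14) were lower with both hairpins. CLSPN had the largest difference, -0.66 ± 0.22. At an unadjusted p under 0.05 from limma, 3 of the 34 members were lower, against 4.34% of all genes.

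Mitotic genes and clustered histones were lower mainly with PTK7-2. Of 31 mitosis and spindle genes, 13 were separated downward and 5 upward (41.9% and 16.1%, against 18.9% and 26.0% of all genes). The median over members was 0.00 in PTK7-1 and -0.21 in PTK7-2, each relative to the control mean, so that without PTK7-2 the median difference was 0.00 in place of -0.16. CENPF, a kinetochore protein, had log2 values of 8.17 and 8.47 in PTK7 arrays, against 8.96 and 9.07 in controls. NUSAP1, CDC25C and NDC80 had differences of -0.35 ± 0.15, -0.45 ± 0.20 and -0.38 ± 0.18, and KIF11, a spindle motor, was at 9.35 and 8.74 in PTK7 arrays against 9.42 and 9.39 in controls. Of 29 histone genes, 28 had a mean below the controls, and 9 were separated downward and 1, H2AC25, upward (31.0% and 3.45%). Their median was 0.03 in PTK7-1 and -0.36 in PTK7-2. H2BC12 was the member with the largest separation, at 9.77 and 10.15 in PTK7 arrays against 11.19 and 11.22 in controls. Histone genes are near-identical copies, and their probes may read more than 1 of them.

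Regulators of the cell cycle showed no common direction. Of 24 measured G1 cyclins, inhibitors and WEE1 family genes, 5 were separated upward and 6 downward. Besides WEE1, the retinoblastoma family genes RB1 and RBL2 were lower, at 6.95 and 6.60 against 7.37 and 7.46 in controls for RB1, and at 7.19 and 8.05 against 8.51 and 8.70 for RBL2. The CDK inhibitor genes CDKN1A and CDKN2D were 0.48 ± 0.17 and 0.37 ± 0.18 higher.

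A list joining PI3K subunits with the SMAD and ID genes of bone morphogenetic protein signalling had a median difference of -0.22, or -0.34 without the dimmest 40% of genes. Of 20 measured, 11 were separated downward and 3 upward. PIK3CB, the catalytic subunit p110β, had log2 values of 8.05 and 7.50 in PTK7 arrays, against 8.91 and 9.22 in controls, with a difference of -1.29 ± 0.23. SMAD1, which carries the bone morphogenetic protein signal to the nucleus, had 6.04 and 6.24, against 7.06 and 7.23. ID2, a target of that signal, had 7.32 and 7.19, against 7.72 and 8.36. The receptor gene BMPR2 and the regulatory subunit gene PIK3R3 had differences of -0.41 ± 0.16 and -0.72 ± 0.25.

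Hairpins are processed by the small RNA machinery, which controls and PTK7 cells alike had to use. Of 15 measured genes of this machinery, 12 had a mean below the controls. Separated downward were 7 and upward 1 (46.7% and 6.67%, against 18.9% and 26.0% of all genes). The median difference was -0.12, which was -0.07 after quantile normalization and -0.19 without PTK7-2. DICER1, the enzyme that trims hairpins, had log2 values of 8.27 and 8.15 in PTK7 arrays, against 8.78 and 8.94 in controls. AGO4 had 5.92 and 6.23, against 6.71 and 6.94, and AGO2, the member that cuts its target, had 8.76 and 8.74, against 8.37 and 8.19. AGO2 was the single gene of the list that lay higher with both hairpins. TNRC6B and DGCR8 had differences of -0.35 ± 0.14 and -0.39 ± 0.16.

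Epithelial genes differed by gene and not as a group. Over the 22 measured epithelial junction and keratin genes, 4 were separated upward and 3 downward. These are 18.2% and 13.6%, both below the 26.0% and 18.9% of all genes. The 3 lower genes were GRHL1, GRHL2 and ESRP2. GRHL1 had log2 values of 5.86 and 5.91 in PTK7 arrays, against 6.50 and 6.91 in controls, and GRHL2 and ESRP2 had differences of -0.42 ± 0.14 and -0.39 ± 0.15. Of 16 desmosome genes, 4 were separated downward and 2 upward, with DSC3 (-0.52 ± 0.21), PKP1 (-0.27) and DSP (-0.27) beside DSC2. ELF3, an epithelial ETS factor, was at 7.68 and 8.14 in PTK7 arrays, against 8.76 and 9.23 in controls, and the mucin gene MUC1 had a difference of -1.35 ± 0.56, at 6.16 and 7.94 against 8.19 and 8.60.

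Of 18 lung lineage genes, 8 were separated upward and 6 downward (44.4% and 33.3%, against 26.0% and 18.9% of all genes). NKX2-1, the factor that defines the distal lung lineage and is a diagnostic marker of lung adenocarcinoma, had log2 values of 7.70 and 6.89 in PTK7 arrays, against 8.36 and 7.90 in controls. FOXA1 had 8.47 and 8.21, against 8.79 and 8.79. The surfactant gene SFTPD was 0.32 ± 0.14 higher but dim, at 5.32 and 5.22 against 4.95 and 4.95. The median over the list was 0.09. Without the dimmest 40% of genes 8 members remained, of which 3 were separated upward and 4 downward, with a median of -0.19, and without PTK7-2 the median of the list was close to 0.

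Of 23 integrin, laminin and type IV collagen genes, 10 were separated upward and 3 downward, with a median difference of 0.14, which was 0.02 without PTK7-2. LAMB3, a chain of laminin-332, had log2 values of 9.22 and 9.35 in PTK7 arrays, against 8.48 and 8.01 in controls. ITGA2, a collagen receptor subunit, had 10.10 and 9.75, against 8.89 and 8.23, and ITGB8, a subunit of the receptor that activates TGF-β, had 4.15 and 4.81, against 5.62 and 6.16. ITGB8 was the lowest of the list, at -1.41 ± 0.26. ITGA5 and ITGB5 were 0.59 ± 0.19 and 0.53 ± 0.16 higher. Of 22 EMT factors and mesenchymal genes, 10 were separated upward and 2 downward (45.5% and 9.09%, against 26.0% and 18.9% of all genes). The median difference was 0.07. After median centring it was 0.03, with 6 separated upward and 4 downward. N-cadherin, CDH2, was highest, at 6.99 and 7.04 in PTK7 arrays against 6.48 and 5.83 in controls. VIM, LOX and LOXL2 were higher by 0.52 ± 0.22, 0.52 ± 0.21 and 0.54 ± 0.23. S100A4 had a difference of -0.40 ± 0.16. Of 24 metalloproteases and inhibitors, 4 were separated upward, ADAM8 and MMP3 (0.58 ± 0.18) among them, and 2 downward (16.7% and 8.33%, both below the shares of all genes).

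**Figure D4:**
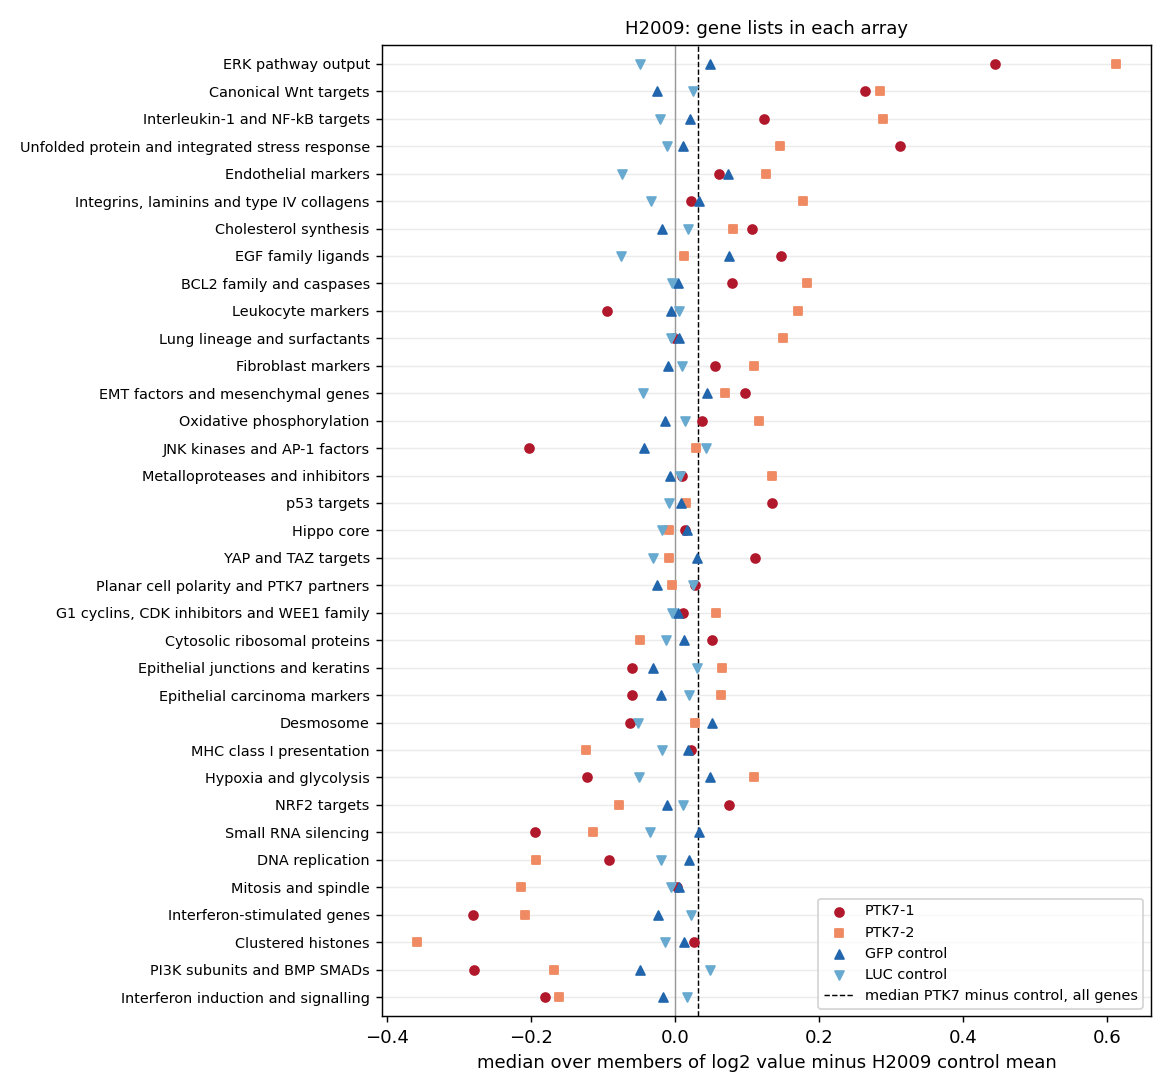
Median over the members of each of 35 gene lists (y axis, ordered by median difference) of the log2 value minus the H2009 control mean (x axis), with 1 point per array, and a dashed line at the median difference of all genes, 0.03. ERK output stands at 0.46 and interferon induction at -0.23, and the red points of mitosis and histone genes part from each other.

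The 2 PTK7 hairpins gave different values at some genes, which are given as a description. SNORD116-21 and SNORD116-18, members of a family of near-identical small nucleolar RNAs on chromosome 15, were at 10.14 and 6.14 in PTK7-1 but at 6.52 and 3.36 in PTK7-2. Controls lay between those values, at 8.50 and 5.32 in GFP and at 8.51 and 4.30 in LUC. B4GALT6, a glycosphingolipid enzyme, was at 7.58 in PTK7-1 and 4.77 in PTK7-2, against 6.77 in GFP and 6.96 in LUC. The opposite order was seen at MMP1, a collagenase, with 4.04 in PTK7-1 and 6.16 in PTK7-2, against 4.26 in GFP and 3.76 in LUC. AZGP1 and ST6GALNAC5 were also higher with PTK7-2, at 7.79 and 8.70, than with PTK7-1, at 5.53 and 6.70. In none of these 6 genes were the groups of H2009 separated.

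The same contrast was made in H1299 in the same fit. The PTK7 arrays of that line had PTK7 at 5.63 and 5.53, against 5.73 and 6.03 in its controls, a smaller difference of -0.30, and the difference between the lines was -0.66 ± 0.24, with an adjusted p of 0.922 from limma. For the H2009 minus H1299 difference, no gene passed the adjusted threshold (0%), the lowest adjusted p from limma was 0.130, and 951 genes (5.17%) had an unadjusted p under 0.05. With the hairpin as a block 1 gene passed and 1431 had such a p. Of the 30 genes with the widest gap in H2009, 7 were separated in the same direction in H1299. That happened at 4.93% of all genes upward and 4.53% downward, which is 19.0% of the genes separated upward in H2009 and 23.9% of those separated downward, so 7 of 30 is close to the share among separated genes. These were IL1A, ANKRD1, DKK1, MFSD2A, DSC2, IL1R1 and H2BC12. Their gaps in H1299 were 0.07, 2.29, 1.66, 0.03, -1.10, -0.79 and -0.52 in that order, so IL1A and MFSD2A were barely separated there. DSC2 differed by -1.45 in H2009 and -1.37 in H1299, DKK1 by 1.75 and 1.79, and ANKRD1 by 1.45 and 3.05. A further 2, CYP24A1 and ADAM8, were separated in the opposite direction, and 21 were not separated in H1299. Opposite directions occurred at 3.33% of all genes with H2009 higher and 2.34% with H2009 lower, or 12.8% and 12.3% of the genes separated in H2009.

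IL1A, SOX2, CEACAM5 and IFI44 were dim in H1299, all below the median level of all genes. SOX2 was at 4.71 and 4.98 in PTK7 arrays of H1299, against 4.85 and 5.12 in its controls, and CEACAM5 at 4.12 and 4.05, against 4.07 and 3.87. By contrast SPRY4 and ETV4 were brighter in H1299 than in H2009 and differed there by only -0.06 and -0.03. The median over the 19 ERK genes was 0.46 in H2009 and -0.03 in H1299, and 6 of them had an unadjusted p under 0.05 for the difference between the lines. Over the 40 interferon-stimulated genes the medians were -0.21 in H2009 and 0.06 in H1299, with 13 under that p. Over the mitotic genes they were -0.16 in H2009 and 0.25 in H1299.

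Ranked by unadjusted p for the difference between lines, the genes relatively higher in H2009 were LIPG, ADAM8, FAM222A-AS1, TNFSF15 and PRSS3P2. LIPG, endothelial lipase, had log2 values of 7.41 and 7.24 in PTK7 arrays of H2009, against 6.37 and 6.14 in its controls, and 4.65 and 4.71, against 4.87 and 4.99, in H1299. The genes relatively lower in H2009 were OR7E19P, ID2, PPP1R3C, NAIP and TMEFF2. For the pseudogene OR7E19P and for TMEFF2 the groups overlapped in H2009, and the difference lay in H1299, by 3.99 and 1.74. ID2 was lower in H2009 (-0.79) and higher in H1299 (1.87), and the glycogen regulator PPP1R3C likewise (-1.21 and 0.61). NAIP, an apoptosis inhibitor with near-identical copies on chromosome 5, had -0.70 in H2009 and 0.62 in H1299.

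**Figure D5:**
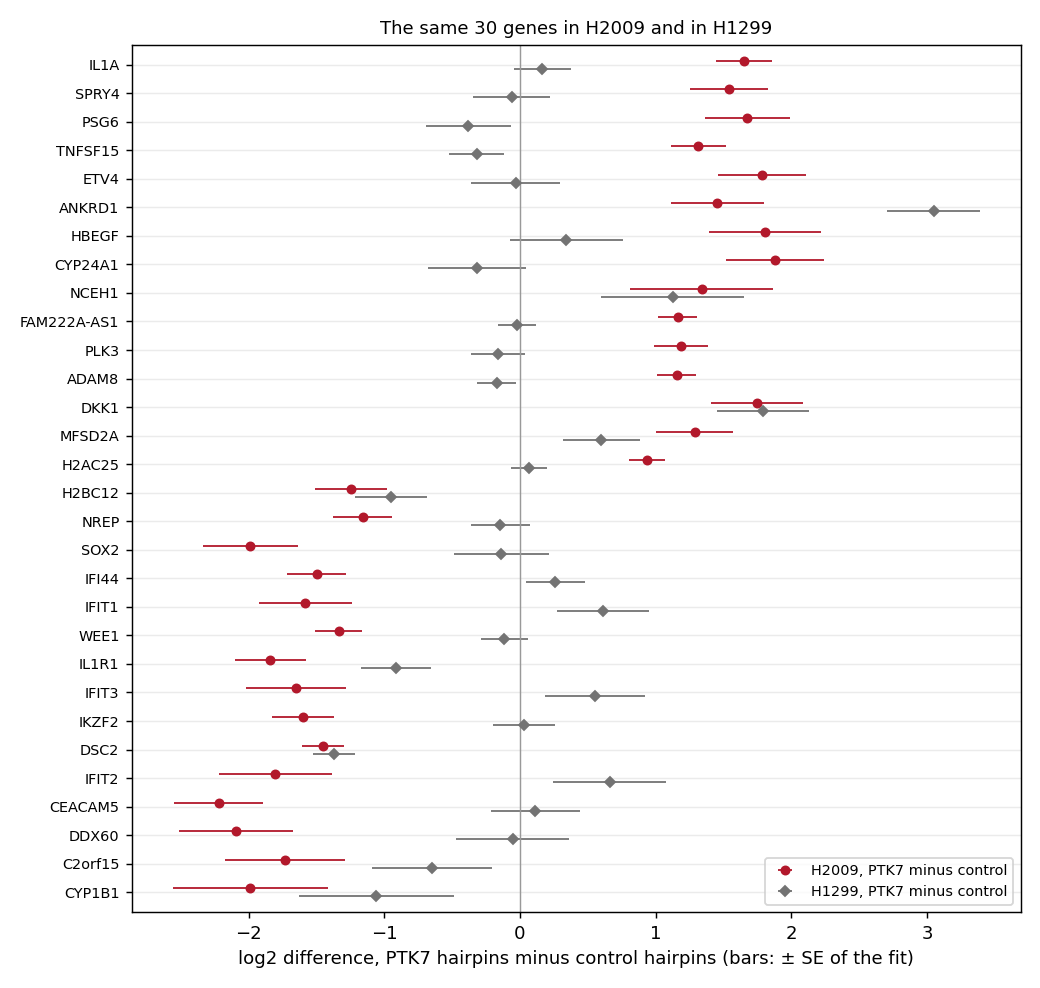
Log2 difference, PTK7 minus control hairpins, with the standard error of the fit as bars (x axis) for the 30 genes with the widest gap in H2009 (y axis), with H2009 as circles and H1299 as diamonds. DKK1 and DSC2 have nearly the same difference in both lines, ANKRD1 is larger in H1299 at 3.05, and most other H1299 points lie closer to 0 than the H2009 points.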

How the data were processed

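The deposited log2 values come, per the submitters' processing notes, from RMA run under R 2.14.0. RMA corrects background, normalizes between arrays and summarises probes. Of 32321 probe sets, 19158 had a single gene symbol in the array's annotation, 1388 had several and 11775 were not listed. The brightest probe set was kept for 637 genes with several, leaving 18404 genes. Array medians in H2009 were 5.32 to 5.39. With 2 arrays a group, precision is limited by array number.

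The fit used limma 3.58.1 under R 4.3.3 and gave each of the 4 groups its own mean, using all 8 arrays. Variances were moderated by empirical Bayes, and p-values were adjusted by Benjamini-Hochberg across the 18404 genes at 0.05. On 10 simulated data sets with 100 genes changed at each size, the fit recovered 51.9% of 2-fold and 86.7% of 4-fold changes, and 5.13% of calls were false. The simulated noise was independent between arrays, whereas arrays with the same hairpin deviated together in the data. These rates therefore need not hold for the deposited arrays, and they do not show how many real changes were missed. The named genes were PTK7, 15 per direction by gap, up to 5 separated members per list by unadjusted p, 5 per direction for the difference between lines and 3 per direction between hairpins. The members, the 35 lists (747 of 808 genes measured) and the rules were chosen with earlier results of these data known.

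The labels use the same hairpins in both lines, and deviations of same-hairpin arrays from group means correlated between lines, with r = 0.407 for PTK7 and 0.230 for control hairpins. Other settings were quantile normalization, median centring, removal of dim genes, other probe set rules, other priors, H2009 alone, the hairpin as a block and leaving out each array.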

Additional observations from a re-analysis of the deposited data

Results flagged for a closer look

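Among the genes named by the rules, 22 lay on opposite sides of the controls in the 2 lines with both PTK7 arrays each, and the difference between lines was tested with limma without passing the adjusted threshold. They are 11.9% of the 185 named genes separated in H2009. Among all genes separated upward and downward in H2009 the shares were 12.8% and 12.3%, so the named genes do not stand apart in this respect. The values are H2009 minus H1299 differences of the PTK7 minus control contrast on the log2 scale. Higher in H2009 and lower in H1299 were CYP24A1 (2.20), PRSS3P2 (1.36), ADAM8 (1.33), LIPG (1.31), BCL2A1 (0.59), DHCR7 (0.47), NRG2 (0.42), CD163 (0.35) and RPL11 (0.20). BCL2A1 is a survival protein and DHCR7 an enzyme of cholesterol synthesis. Lower in H2009 and higher in H1299 were ID2 (-2.66), PPP1R3C (-1.81), HERC5 (-1.35), NAIP (-1.32), PIK3R3 (-1.15) and the glycolytic regulator PFKFB3 (-1.11). Smaller values of the same kind were those of GCLC (-0.85), NDC80 (-0.80), EGLN3 (-0.76), H2AC4 (-0.70), TAP1 (-0.70), JUNB (-0.50) and SAV1 (-0.44).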

How the results depend on the processing

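No gene passed the adjusted threshold for H2009 under any of 17 alternatives, and PTK7 stayed lower, from -1.11 to -0.81, with a lowest adjusted p of 0.104 from limma. With the hairpin as a replicate block, 2241 genes had an unadjusted p under 0.05, against 1468 without it, and for the difference between lines 1431 did, against 951, and 1 passed the adjusted threshold; the block changed no other call. The trended prior also gave 1 gene there. Without the dimmest 40% of genes the unadjusted counts were 864 in H2009 and 505 between lines, and 2341 genes were separated upward. With every probe set they were 2440 and 1813, with 7672 separated upward and 6066 downward. Leaving out 1 array gave 585 (without LUC) to 2273 (without PTK7-1) in H2009, 761 without GFP, 465 (without LUC of H2009) to 1911 (without PTK7-1 of H1299) between lines, and 0 to 3 adjusted calls between lines, the 3 also without PTK7-1 of H1299. It gave 4776 to 9357 genes separated upward and 3486 to 7099 downward; fewer arrays separate more easily. Of 3028 alternative values of 192 named-gene entries other than PTK7, 8 changed sign in 6 genes, all without 1 array of H2009. Over the fits that leave out 1 array, OR7E19P ran from -0.25 to 0.069, SNORD116-21 from -1.98 to 1.64, B4GALT6 from -2.09 to 0.72, SNORD116-18 from -1.45 to 1.33 (0.45 without GFP), AZGP1 from -1.44 to 0.82 (0.34 without LUC) and ST6GALNAC5 from -1.65 to 0.34. All but OR7E19P had been named for a difference between hairpins. Of 420 alternative list medians, 44 changed sign, in 19 lists. Detection calls were not used here, and dim genes are compressed.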

Other observations

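The counts of the lists not described above follow, to be set against the 26.0% of all genes separated upward and 18.9% downward. Of 20 BCL2 family and caspase genes, 7 were separated upward and 4 downward, and the bright survival gene BCL2L1 had log2 values of 10.95 and 10.95 in PTK7 arrays, against 10.13 and 9.71 in controls. BCL2L11, which encodes the death-promoting protein BIM, was at 7.34 and 6.83 in PTK7 arrays, against 7.79 and 8.23 in controls. Of 19 NRF2 targets, 6 were separated upward and 4 downward, with the heme oxygenase gene HMOX1 at 10.34 and 10.36 in PTK7 arrays, against 9.35 and 9.50 in controls, and AKR1C3 0.74 ± 0.12 higher. GCLC and GCLM, the 2 subunits of the enzyme that makes the precursor of glutathione, lay on opposite sides, at -0.39 ± 0.14 and 0.29 ± 0.12. Of 18 p53 targets, 5 were separated upward and 5 downward, with PLK3 highest and TP53INP1 at -0.96 ± 0.29.

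Of 25 YAP and TAZ targets, 9 were separated upward and 5 downward, and of 21 Hippo core genes 4 and 4, with the kinase cofactor gene MOB1B at 7.43 and 7.54 in PTK7 arrays, against 8.25 and 8.21 in controls. Of 29 hypoxia and glycolysis genes, 6 were separated upward and 5 downward, and EGLN3 and BNIP3L had differences of -0.54 ± 0.16 and -0.49 ± 0.15. Of 16 cholesterol synthesis genes, 5 were separated upward and 1 downward, and of 25 oxidative phosphorylation genes 10 and 0. Of 24 ribosomal protein genes, 5 were separated upward and 1 downward. The epithelial markers had 1 of 10 separated upward and 2 downward, and the endothelial markers 4 of 12 upward and 1 downward.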
